A study of Mus musculus with 18 samples.

Results

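The 6 libraries of the sort labelled DC (dendritic cells) from MC38 tumours are described here, of 18 in the study. They were taken by their labels, 3 from mice given anti-PD-1 and 3 from mice given anti-PD-1 plus D18, and the comparison asks what D18 adds to PD-1 blockade in these cells. MC38 is a mouse colon carcinoma line. It was grown under the skin of female C57BL/6 mice, 6 weeks old at injection, and groups were formed when tumours averaged 100 mm3, and treatment lasted 2 weeks. Both groups received 200 µg per mouse of an antibody against PD-1, an inhibitory receptor of T cells, 2 times per week. The D18 group also received 25 µg per mouse of D18 (a code name, whose target the labels do not give) 1 time per week. No untreated tumour was part of the design. The mice were pooled and divided at random before treatment, and no source says that replicate libraries came from separate mice, so the spread behind each p-value is that of these samples and may be technical. Cells were sorted into lysis buffer and made into Smart-Seq2 libraries, a full-length cDNA method without molecular identifiers or strand.

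Dendritic cells take up antigen, cut it in lysosomes and with the proteasome, and show the peptides to T cells on MHC class II and class I. Conventional dendritic cells depend on the receptor encoded by Flt3, and the subset called cDC1 is known in tumours for presenting antigen to CD8+ T cells and for making the chemokine encoded by Cxcl9. Macrophages share much of this equipment, Itgax and MHC class II included, but are set apart by genes such as Csf1r, Apoe and the C1q genes. Interferon-gamma from activated T cells acts on both, and type I interferon turns on a partly separate set of antiviral genes.

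The libraries were shallow. Reads assigned to genes numbered 59479, 222402 and 171025 in anti-PD-1 replicates 1, 2 and 3, and 190641, 11170 and 169296 with D18. D18 replicate 2 is by far the shallowest, and 1 read there is worth 4.81 normalised reads (reads divided by the size factor of the library). A count of 0 in it allows up to 3 reads, or 14.4 normalised reads, in counting error alone. It held no read of 273 of the 886 genes tested (30.8%), against 0 to 25 genes in the other 5 libraries. Mitochondrial genes took 71.9% of the reads of anti-PD-1 replicate 2 (95% Wilson interval 71.7 to 72.1) and 2.39% to 32.5% elsewhere. The mitochondrial messengers, mt-Co2, mt-Co3 and mt-Atp6, were without a read in anti-PD-1 replicates 1 and 2 and had 33 to 334 reads together in the other 4 libraries, so that this split crosses the treatments unevenly. The CD8+ and CD4+ T cell sorts had the same split, with anti-PD-1 replicates 1 and 2 again without such a read. Values without D18 replicate 2 stand beside most results below.

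The label was checked against marker genes, and the 20 listed macrophage markers took more reads than the 10 core dendritic cell markers. Lists of unlike size and level do not measure the share of each cell type. Itgax, the integrin chain CD11c, had 20, 17 and 22 reads under the antibody alone against 52, 3 and 38 with D18. H2-Aa, an MHC class II chain, had 151, 689 and 269 reads against 391, 11 and 289. Both genes were thus present in all 6 libraries. Flt3 had 0 reads in each anti-PD-1 library and 13, 1 and 3 with D18. Zbtb46, a transcription factor of conventional dendritic cells, had 0, 1 and 0 reads against 2, 0 and 2. The cDC1 receptor genes Xcr1 and Clec9a had no read with anti-PD-1, and with D18 they had 2 and 14 reads over the 3 libraries. Il12b, the cytokine subunit by which dendritic cells drive type 1 T cell responses, had no read in any library. All 20 markers of the monocyte and macrophage list had reads, and together they took 44621, 19771 and 36042 CPM (reads scaled to a common total per library) under the antibody alone and 29469, 12981 and 27284 CPM with D18. The 10 core dendritic cell markers, of which Cd74, H2-Aa, H2-Ab1 and H2-Eb1 are also made by macrophages, took 12340, 12378 and 7151 CPM against 9012, 4029 and 6763 CPM. The groups overlapped on both lists (two-sided exact permutation p = 0.4 for macrophages and 0.2 for dendritic cells, where the smallest p that 3 against 3 libraries allow is 0.1). Over reads outside the mitochondrial genome, the macrophage list took 45715 to 70269 CPM in the anti-PD-1 group and 15167 to 43631 CPM with D18, with no overlap (exact permutation p = 0.1). The scarcity of Flt3, Zbtb46 and Xcr1 goes against reading these libraries as mainly conventional dendritic cells, and they are called the DC sort below. In bulk samples like these, fewer cells of a type and less RNA per cell cannot be told apart.

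Other cells were present unevenly. The 14 T cell markers had 5, 11 and 581 reads under the antibody alone against 115, 1 and 1117 when D18 was added, so both libraries numbered 3 held T cell transcripts. B cell markers had 9, 5 and 15 reads against 168, 1 and 65. The 8 neutrophil markers had 1, 2 and 7 reads against 2, 19 and 8, and in D18 replicate 2 most of these 19 were S100a8 (11 reads) and S100a9 (5 reads). Ly6g and Retnlg, further neutrophil markers, had no read in any library. The part of these cells in the differences between treatments was not tested.

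**Figure D1:**
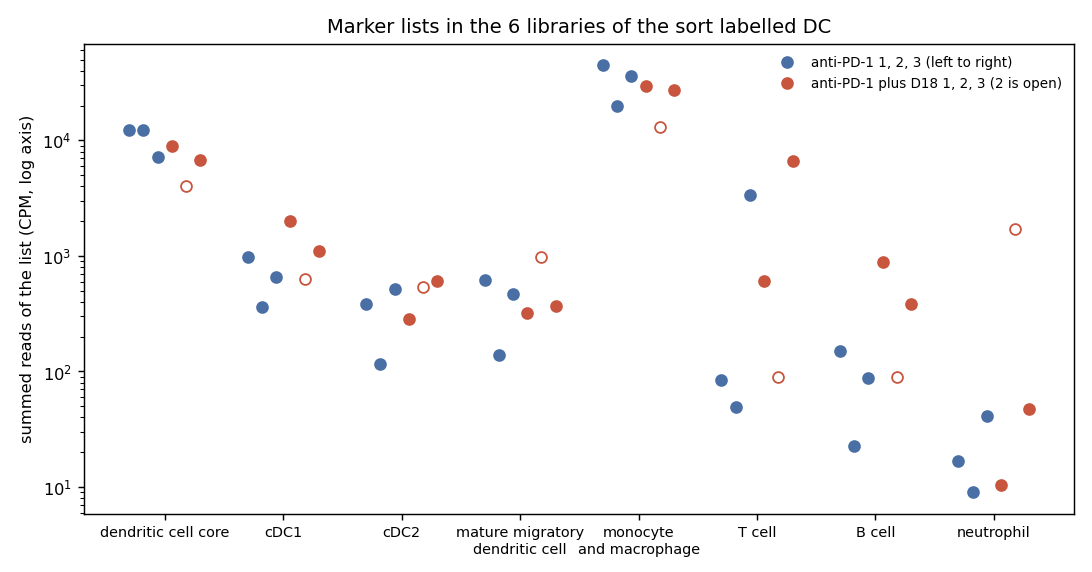
Summed reads of 8 cell type marker lists in each of the 6 libraries, in CPM on a log axis; blue points are anti-PD-1 replicates 1, 2 and 3 from left to right, red points anti-PD-1 plus D18, with the shallow replicate 2 open. The macrophage list, at 12981 to 44621 CPM, lies above the core dendritic cell list in every library, and the T cell list is highest in both libraries numbered 3 (3397 and 6598 CPM).

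No single gene separated the treatments by the test over all genes. Genes with a mean of at least 10 normalised reads were compared with limma on log2(normalised reads + 1). This scale shrinks the change of low genes, but a 0 in the shallow D18 replicate 2 pulls the change of a gene down. The median log2 change of all genes was −0.65, and −0.31 or −0.79 with 10 or 0.1 added in place of 1. Of 886 genes, 0 (0%) had a Benjamini-Hochberg adjusted p under 0.05, the smallest being 0.551. At an unadjusted p under 0.05 there were 19 genes higher with D18 (2.14%) and 42 lower (4.74%). With limma-voom on reads 0 genes passed (41 higher and 87 lower at an unadjusted p under 0.05). After quantile normalisation 1 gene passed, the secreted phosphoprotein gene Spp1 (log2 change −3.68, limma adjusted p = 0.0269), with 71 higher and 75 lower at an unadjusted p under 0.05. A term for the libraries without mt-Co2, mt-Co3 and mt-Atp6 left 0 genes of either direction under 0.05 before adjustment. In that model the change rests on anti-PD-1 replicate 3 against the D18 libraries.

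The whole distribution leaned down, and 1 library set how far. The median log2 change of all tested genes was −0.65, with 612 genes lower and 274 higher with D18. Without D18 replicate 2 it was 0.06, with 465 genes higher and 421 lower. All 3 D18 libraries lay above all 3 anti-PD-1 libraries for 37 genes (4.18%) and below them for 176 (19.9%). Without D18 replicate 2 these counts were 164 (18.5%) and 190 (21.4%). These medians, −0.65 and 0.06, are the ones to set beside those of the lists below.

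**Figure D2:**
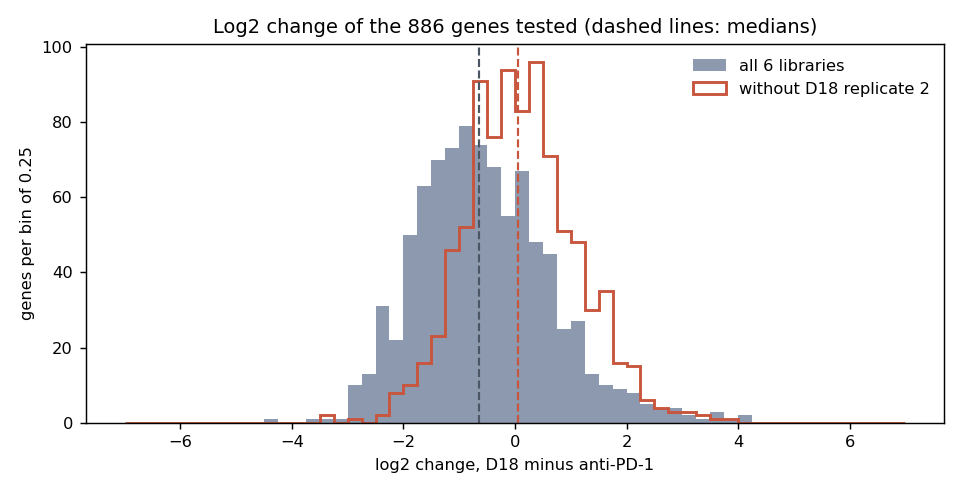
Distribution of the log2 change (D18 minus anti-PD-1) of the 886 tested genes, as genes per bin of 0.25, with all 6 libraries (filled) and without D18 replicate 2 (red outline); dashed lines mark the medians. The median moves from −0.65 to 0.06 when the shallow library is left out.

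The genes named first were the 10 per direction with the smallest unadjusted p among those with a mean of at least 50 normalised reads in the higher group and groups that did not overlap, and 9 qualified on the higher side. Their adjusted p was 0.551 by limma in every case, so each value below is a description.

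Of the genes named on the lower side, Spp1 is the 1 member of the macrophage marker list. Spp1, a secreted protein of tumour macrophages (ENSMUSG00000029304.14, mm10 chromosome 5, 104435118 to 104441050), had 293, 206 and 177 normalised reads under the antibody alone and 29.8, 0 and 33.0 with D18. Its log2 change was −4.44 ± 1.30 (SE moderated by limma over all genes, n = 3 per group), and −2.77 without D18 replicate 2, where it had no read. The 2 deeper D18 libraries alone lay well under the lowest anti-PD-1 library. Lgmn, an asparagine-specific lysosomal protease that processes antigen (ENSMUSG00000021190.14, chromosome 12, 102394084 to 102439813), had 272, 279 and 222 normalised reads against 81.9, 24.1 and 68.8 (−2.29 ± 0.73, and −1.76 without replicate 2). Tgfbi, an extracellular matrix protein induced by TGF-beta, had 172, 77.0 and 128 against 54.3, 24.1 and 36.8 (−1.68 ± 0.68). For Lgmn the anti-PD-1 libraries stayed between 222 and 279, while those with D18 spread from 24.1 to 81.9.

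Genes of signalling, of membrane proteins and of other functions lay on the same side. Rgs1, a brake on chemokine receptor signalling (ENSMUSG00000026358.13, chromosome 1, 144242296 to 144249242), had 163, 272 and 118 normalised reads in the anti-PD-1 group and 29.3, 28.9 and 44.0 with D18 (−2.35 ± 0.66). It did not depend on the shallow library, without which the change was −2.24. Cd72, an inhibitory receptor of B cells and myeloid cells, had 61.4, 66.5 and 41.7 against 23.9, 4.81 and 10.5 (−2.25 ± 0.71). Unc93b1, the chaperone that carries nucleic acid-sensing Toll-like receptors to endosomes (ENSMUSG00000036908.16, chromosome 19, 3935186 to 3949340), had 59.3, 59.1 and 45.4 against 15.2, 24.1 and 21.0 (−1.41 ± 0.61, and −1.55 without D18 replicate 2). Sat1, an enzyme that breaks down polyamines, had 96.4, 243 and 93.2 against 42.9, 24.1 and 22.9 (−2.14 ± 0.70). The anti-PD-1 libraries agreed closely on Unc93b1, while Sat1 was highest in anti-PD-1 replicate 2, the library rich in mitochondrial reads. P4hb, a disulphide isomerase of the endoplasmic reticulum (−2.17), and Ms4a4c, a membrane protein of monocytes (−2.49), complete those named here.

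**Figure D3:**
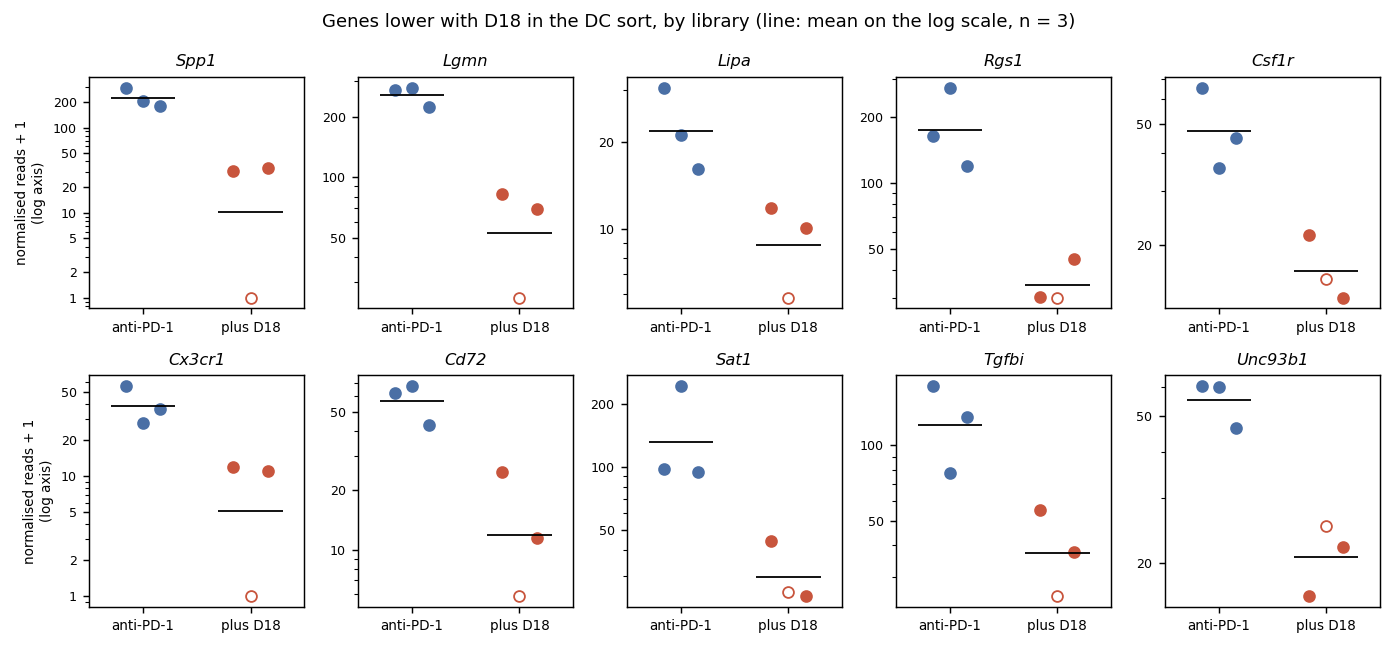
Normalised reads + 1 on a log axis for 10 genes lower with D18, with 1 point per library (anti-PD-1 blue, anti-PD-1 plus D18 red, replicate 2 open) and the mean on the log scale as a line (n = 3). Each panel has its own scale, and in each the 3 D18 libraries lie below the 3 anti-PD-1 libraries, also where the open point is disregarded.

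Among the receptor genes, the pair that marks tissue macrophages was lower. Csf1r, the receptor for the macrophage growth factor CSF1 (ENSMUSG00000024621.15), had 64.6, 34.8 and 44.0 normalised reads under the antibody alone and 20.6, 14.4 and 12.4 with D18 (log2 change −1.52 ± 0.61, and −1.47 without D18 replicate 2). Cx3cr1, the fractalkine receptor of monocytes, macrophages and microglia, had 55.1, 26.4 and 35.0 against 10.9, 0 and 10.0 (−2.91 ± 0.99, and −1.74). Of 18 chemokine and growth factor receptors 6 were tested, and all 6 had a negative change, with a median of −1.20 beside −0.65 for all genes (−0.84 beside 0.06 without D18 replicate 2). The groups did not overlap for 3 of them in both versions, beside 19.9% and 21.4% of all genes, the third being Ccr1, a receptor for inflammatory chemokines. Ifngr1, a chain of the interferon-gamma receptor (−0.69 ± 0.71), had an error as large as its change. Fcrls and Tmem119, further genes known from microglia and tissue macrophages, had changes of −3.74 and −2.89 (−3.48 and −2.04 without D18 replicate 2), and were singled out after their values were seen.

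Of the 20 members of the macrophage list 17 were tested, 15 lower and 2 higher, with a median of −1.02 beside −0.65 for all genes (−0.41 beside 0.06 without D18 replicate 2). The groups did not overlap for 6 of them, all lower, beside 19.9% of all genes, and for 7 without that library, beside 21.4%. Apoe, a lipid carrier, had 699, 1613 and 1129 normalised reads against 485, 154 and 459 (−1.73 ± 0.91, and −1.20 without D18 replicate 2). C1qb, a chain of complement C1q, had 451, 409 and 339 against 246, 33.7 and 221 (−1.68 ± 0.93, and −0.76). Its partner genes C1qa and C1qc differed less than their moderated errors, at −0.59 ± 0.72 and −0.41 ± 0.74 (−0.29 and −0.04). Lyz2, the lysozyme of myeloid cells, had 307, 1127 and 289 against 1122, 120 and 664 (−0.05 ± 1.10, and 0.89), so it did not separate the treatments. Arg1, an arginine-degrading enzyme of suppressive macrophages, ran from 8.47 to 249 with anti-PD-1 and from 19.3 to 226 with D18 (0.78 ± 1.32, and 1.67).

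Most lysosomal genes had lower values with D18. Of 23 genes of the lysosome and antigen degradation list 21 were tested, and 19 of them had a negative change, with a median of −1.30 beside −0.65 for all genes. For 10 of the 21 the groups did not overlap, all lower, where 19.9% of all tested genes did so. Without D18 replicate 2 the count was again 10, beside 21.4% of all genes, and the median was −0.48 beside 0.06. Ctsb, the cysteine protease cathepsin B, had 373, 323 and 275 normalised reads in the anti-PD-1 group and 257, 62.6 and 133 with D18 (−1.31 ± 0.79). Lipa, the lysosomal acid lipase, had 29.7, 20.05 and 15.1 against 10.9, 4.81 and 9.08 (−1.30 ± 0.61). In both the highest D18 library came close to the lowest anti-PD-1 library. Lamp1, a lysosomal membrane protein, had 74.1, 65.4 and 54.4 against 50.5, 0 and 30.1 (−2.48 ± 1.35, and −0.70 without D18 replicate 2). Ctsc, Ctsz, Ctsa, Hexa and Lamp2, beside Lgmn, were among the others of the 10. Psap, the precursor of sphingolipid activator proteins (−0.41 ± 0.99), and Ctsl, the protease cathepsin L (−0.61 ± 1.29), turned positive without D18 replicate 2 (0.64 and 0.77). The macrophage list, whose summed level is given above, moved with this group, and its part in it was not tested.

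The lysosomal genes are known targets of the transcription factor TFEB, which binds sequences built around CACGTG. The letters TCACGTG, on either strand, were found in the 250 bases before the start of 4 of 20 RefSeq promoters of the list (20%), against 3.13% of all 32851 promoters and 6.03% of those of tested genes. Such a match is a description of the sequence and not a bound site.

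MHC class II genes were also low with D18, but the anti-PD-1 libraries differed widely among themselves. H2-Aa had 160, 727 and 127 normalised reads under the antibody alone and 212, 52.9 and 138 with D18 (log2 change −1.08 ± 0.94, and −0.52 without D18 replicate 2). H2-Ab1, the partner chain, had 214, 704 and 154 against 175, 43.3 and 118 (−1.56 ± 0.89, and −0.99). Cd74, the invariant chain that guides class II through the cell, had 216, 855 and 158 against 245, 38.5 and 137 (−1.49 ± 0.99, and −0.75). In all 3 genes anti-PD-1 replicate 2 stood far above the other libraries of its group, and the groups overlapped. Of 14 class II presentation genes 9 were tested, all 9 lower, with a median of −1.30 beside −0.65 for all genes (−0.70 beside 0.06, and 8 of 9 lower, without D18 replicate 2). No overlap was seen for 2 of them, Lgmn and the peptide exchange factor gene H2-DMb1, beside 19.9% of all genes. Ciita, the master regulator of class II transcription, was too low to test, with 0, 0 and 1 reads against 5, 3 and 4.

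MHC class I genes followed the rest of the transcriptome. Of 18 genes 14 were tested, with a median of −0.70 beside −0.65 for all genes, and of 0.17 beside 0.06 without D18 replicate 2. B2m, the light chain, had 782, 1191 and 814 normalised reads against 1165, 106 and 765 (−0.998 ± 1.09, and 0.05 without replicate 2). H2-K1, a heavy chain, had 272, 336 and 343 against 259, 81.8 and 409 (−0.61 ± 0.84, and 0.05). In both the shallow library alone was low. Within the list, Pdia3, a chaperone of the peptide-loading complex, stood lower at 44.5, 27.4 and 45.0 against 9.22, 0 and 18.6 (−2.74 ± 1.06, and −1.46).

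Interferon-gamma-induced genes went against the downward lean. Gbp7, an interferon-induced GTPase that attacks the vacuoles of intracellular pathogens (ENSMUSG00000040253.15, chromosome 3, 142530342 to 142550149), had 9.53, 1.06 and 8.52 normalised reads in the anti-PD-1 group and 23.3, 33.7 and 16.7 with D18. Its log2 change was 2.06 ± 0.80 (moderated SE, n = 3 per group), and 1.81 without D18 replicate 2, and the groups did not overlap. Gbp2, a GTPase of the same family (ENSMUSG00000028270.12, chromosome 3, 142620602 to 142638008), had 1.06, 29.5 and 5.21 against 24.4, 19.3 and 35.4 (1.86 ± 0.96, and 2.06). Here anti-PD-1 replicate 2 overlapped the D18 libraries.

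Of the 20 genes of the interferon-gamma-induced list 7 were tested, 4 higher and 3 lower, with a median of 0.12 beside −0.65 for all genes. The D18 libraries were all higher for 2 of the 7, beside 4.18% of all genes, and all lower for 0. Without D18 replicate 2 all 7 were higher, with a median of 1.41 beside 0.06. Their groups stood apart for 4 of the 7, beside 18.5% of all genes. The immunity-related GTPase gene Igtp differs between these versions, with 10.6, 7.39 and 12.8 normalised reads against 24.4, 0 and 33.0 (−0.21 ± 1.32, and 1.41 without it). Cxcl10, a chemokine that draws T cells, had 32.8, 5.28 and 13.3 against 36.3, 4.81 and 16.7 (0.12 ± 0.91), and Irgm1, another such GTPase, had −0.75 ± 1.28 (0.83 and 0.60 without D18 replicate 2). With the term for libraries without mt-Co2, mt-Co3 and mt-Atp6 the median of the list was 0.14 beside −0.72 for all genes.

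A further 11 members had a mean of 1 to 10 normalised reads and are given as reads, without a model. Cxcl9, the chemokine for the receptor CXCR3 on T cells (ENSMUSG00000029417.9, chromosome 5, 92321347 to 92328079), had 1, 0 and 2 reads under the antibody alone and 13, 8 and 24 with D18. Iigp1, a GTPase of the same class as Igtp, had 2, 0 and 3 against 52, 2 and 36. Irf1, an interferon-induced transcription factor, had 1, 1 and 19 against 19, 4 and 33. After division by the size factors, all D18 libraries were above all anti-PD-1 libraries for 7 of the 11 (Cxcl9, Iigp1, Irf1, Gbp4, Ciita, Socs1 and Nos2), beside 8.26% of the 6708 genes in that range. Irgm2 lay the other way, beside 8.2% of those genes. In D18 replicate 2 Socs1 rests on 1 read, and Iigp1 and Nos2 on 2 reads each. With that library left out 8 were higher and 1 lower, beside 1186 and 679 of the 6708 genes. Exact permutation gave p = 0.1 for Cxcl9, the smallest possible. Socs1 encodes a feedback inhibitor of interferon signalling and Nos2 the inducible nitric oxide synthase, and they had 10 and 1 reads over the anti-PD-1 libraries against 36 and 15 with D18. Cd274, the gene of the PD-1 ligand PD-L1, had 2, 7 and 7 reads against 20, 0 and 9 and did not separate the groups.

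The promoters of Gbp7, Gbp2 and Cxcl9 are shown because these genes carry the interferon-gamma pattern and because the letters of 2 interferon motifs occur in them. The 250 bases before each start are taken from RefSeq (GRCm38.p6), read 5′ to 3′ on the gene's strand, and capitals mark matches to TTCNNNGAA, the gamma-activated site, or to GAAANNGAA, the interferon response motif, each searched on both strands.
Gbp7: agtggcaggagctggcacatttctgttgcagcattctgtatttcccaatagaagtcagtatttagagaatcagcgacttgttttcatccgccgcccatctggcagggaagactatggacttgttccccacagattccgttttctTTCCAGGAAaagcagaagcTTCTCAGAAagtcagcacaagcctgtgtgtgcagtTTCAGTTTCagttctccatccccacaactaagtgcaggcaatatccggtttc
Gbp2: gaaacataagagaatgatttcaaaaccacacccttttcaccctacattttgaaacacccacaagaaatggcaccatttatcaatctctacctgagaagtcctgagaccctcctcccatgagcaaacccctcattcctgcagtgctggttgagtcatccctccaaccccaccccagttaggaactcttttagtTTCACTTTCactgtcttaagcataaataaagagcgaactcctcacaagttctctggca
Cxcl9: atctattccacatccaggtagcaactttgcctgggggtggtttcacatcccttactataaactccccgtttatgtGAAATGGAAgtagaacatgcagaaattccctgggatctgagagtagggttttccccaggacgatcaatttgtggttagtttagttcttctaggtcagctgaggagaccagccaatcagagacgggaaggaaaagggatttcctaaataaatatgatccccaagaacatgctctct
The windows lie at chr3:142530086-142530335 (plus strand), chr3:142620413-142620662 (plus strand) and chr5:92328080-92328329 (minus strand). Gbp7 has 2 gamma-activated sites, 106 to 98 and 87 to 79 bases before the start, and an interferon response motif at 52 to 44. In Gbp2 the interferon response motif lies 58 to 50 bases before the start and in Cxcl9 175 to 167, and none of the printed matches overlap. TTCNNNGAA was found in 7.02% of all 32851 promoters and in 7 of the 16 that belong to the list (43.8%). GAAANNGAA was found in 7.13% of all promoters and in 12 of the 16 (75%). These shares describe the list, whatever D18 did.

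**Figure D4:**
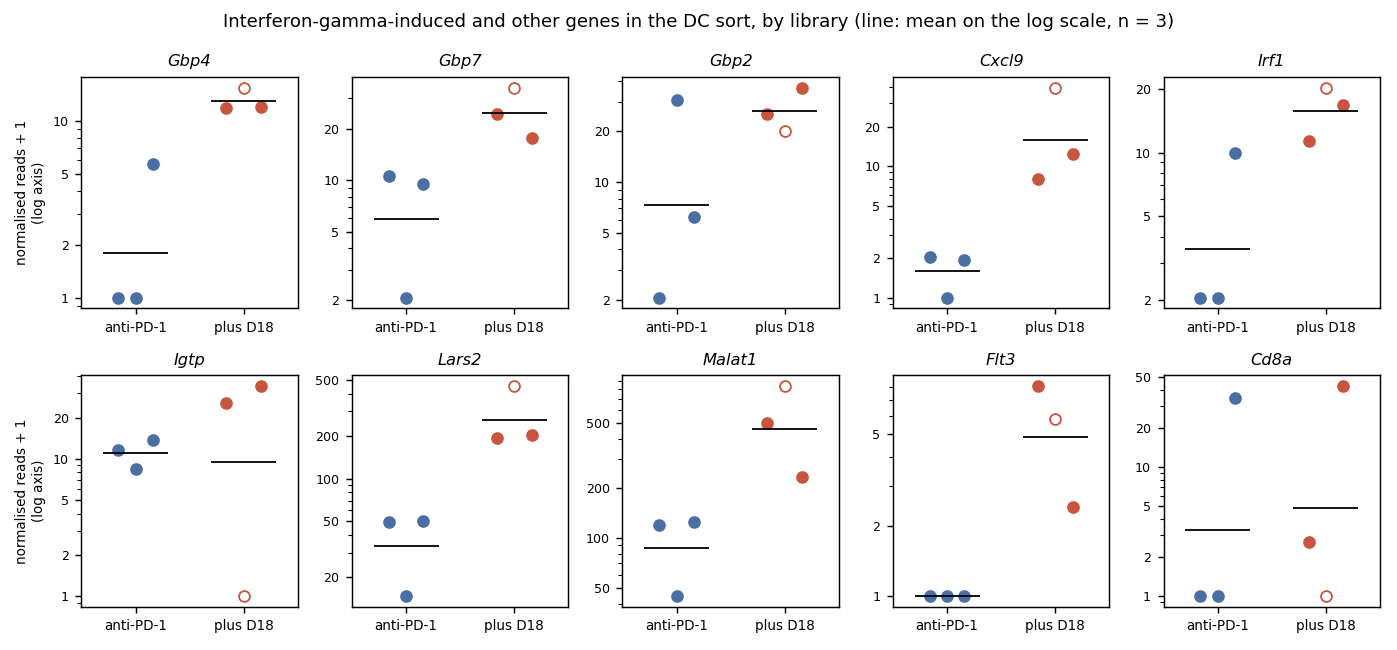
Normalised reads + 1 on a log axis for 6 interferon-gamma-induced genes and for Lars2, Malat1, Flt3 and Cd8a, 1 point per library (anti-PD-1 blue, anti-PD-1 plus D18 red, the shallow replicate 2 open), with the mean on the log scale as a line (n = 3). Gbp4, Gbp7, Cxcl9 and Irf1 do not overlap between groups, Igtp does so through the open point at 0 reads, and Cd8a follows the libraries numbered 3.

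Type I interferon-stimulated genes did not share that pattern. Of 28 genes 16 were tested, and all 16 were lower with D18, with a median of −1.16 beside −0.65 for all genes (−0.30 beside 0.06, and 12 of 16 lower, without D18 replicate 2). The groups did not overlap for 4, all lower, beside 19.9% of all genes, and for 5 without that library, beside 21.4%. Usp18, a protease that removes ISG15 and damps interferon signalling, had 30.7, 27.4 and 18.9 normalised reads against 6.51, 0 and 11.5 (−2.53 ± 1.00, and −1.44). The antiviral synthetase gene Oas1a had 21.2, 25.3 and 15.6 against 10.9, 0 and 8.13 (−2.16 ± 1.06, and −1.04). In both genes each D18 library was below each anti-PD-1 library, and Oas1a was chosen after its values were seen. Other members overlapped. Ifitm3 had 131, 72.8 and 94.2 normalised reads against 225, 38.5 and 77.9. Bst2 had 45.5, 13.7 and 51.1 against 65.6, 4.81 and 43.5. Irf7, which amplifies type I interferon, did not differ beyond its error (−0.65 ± 0.77, and 0.03). Isg15 had 8, 2 and 16 reads against 12, 0 and 4. Among the 12 members with a mean of 1 to 10, the D18 libraries were all lower for 5 and all higher for 0, beside 8.2% and 8.26% of genes in that range. These counts stayed at 5 and 0 without D18 replicate 2, beside 679 and 1186 of the 6708 genes. The 6708 genes were not matched to these 12 by level (80679 reads over the anti-PD-1 libraries, against 352 for the 12). Among the tested genes, whose levels are higher, the share all lower was 19.9%, so 8.2% may be too low a measure here. The difference between these interferon lists was not tested.

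Innate sensors were mostly under the test's filter, with 3 of 28 tested. Tlr2, the receptor for bacterial lipopeptides, had 20, 11 and 31 reads against 11, 0 and 13. Tlr9, the endosomal receptor for CpG DNA, had 1, 4 and 2 against 0 in each D18 library. Tlr4, Tlr7 and Tlr8 had at most 8 reads in any library. Myd88, the adaptor that most of these receptors use, had 5, 6 and 16 reads against 6, 0 and 11, and Tmem173, which encodes STING, had 2, 7 and 18 against 12, 0 and 21. In the 18 members with a mean of 1 to 10, the D18 libraries were all lower for 5 and all higher for 1, beside 8.2% and 8.26% of genes in that range. These counts were 5 and 3 without D18 replicate 2, beside 679 and 1186 of the 6708 genes. Here too the 6708 genes were not matched to the list members by level.

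Cytokines, chemokines and costimulators gave few values. Il1rn, the interleukin-1 receptor antagonist, had 3.18, 7.39 and 3.79 normalised reads in the anti-PD-1 group and 67.3, 4.81 and 18.6 with D18 (1.85 ± 1.00, and 2.73 without D18 replicate 2), and the shallow library alone overlapped. Ccl9, a chemokine for CCR1, had 25.4, 48.5 and 17.5 against 4.88, 0 and 7.17 (−2.99 ± 0.99, and −2.06). Cxcl16, which binds CXCR6 on T cells, had 60.4, 58.0 and 35.0 against 29.3, 24.1 and 33.0 (−0.78 ± 0.63, and −0.66). Of 11 tested chemokines 4 were higher and 7 lower, with a median of −0.49 beside −0.65 for all genes. Without D18 replicate 2 the direction turned, with 8 higher and 3 lower and a median of 0.50 beside 0.06. Ccl5, a chemokine made by T cells as well as myeloid cells, had 0, 0 and 62 reads against 7, 0 and 160, following the libraries with T cell reads. Il1b had 3, 16 and 7 reads against 6, 4 and 5, and Tnf had 9, 0 and 17 against 7, 0 and 43. Cd86, a costimulatory ligand for CD28, had 7.41, 20.05 and 12.3 normalised reads against 9.77, 14.4 and 10.0 (−0.12 ± 0.63, and −0.29). Cd80, Cd40 and Cd83 had at most 6 reads in a library, and Ccr7, which marks dendritic cells on their way to lymph nodes, had 0, 0 and 4 against 4, 0 and 8. Of the 5 tested targets of NF-kappaB 4 were higher, with a median of 0.68 beside −0.65 for all genes (1.11 beside 0.06, all 5 higher, without D18 replicate 2). They include the inhibitor gene Nfkbia, with 19.1, 40.1 and 32.7 against 119, 9.63 and 73.6 (0.59 ± 0.97, and 1.64).

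The 9 genes named on the higher side included long noncoding RNA, predicted genes and ribosomal protein genes. Lars2, the mitochondrial leucyl-tRNA synthetase (ENSMUSG00000035202.7, chromosome 9, 123366927 to 123462666), had 48.7, 13.7 and 49.2 normalised reads against 194, 453 and 204 (2.98 ± 0.78, and 2.59 without D18 replicate 2). Malat1, a long noncoding RNA kept in the nucleus (ENSMUSG00000092341.2, chromosome 19, 5795690 to 5802672), had 119, 43.3 and 124 against 494, 833 and 233 (2.39 ± 0.83, and 1.96). Both were highest in D18 replicate 2. The predicted genes Gm10800 (4.02), Gm21738 (3.93) and Gm10801 (2.92) were highest in that library too, at 2363, 626 and 202 normalised reads. They share sequence, 35.1% of the 25-base words of Gm10801 occurring in Gm10800, so reads from the shared stretches cannot be assigned to 1 of them with certainty. Rps27 (1.86), Rpl37a (2.07), Gm26917 (2.03) and the antiproliferative gene Btg1 (1.27) complete the 9. Of 29 cytosolic ribosomal protein genes 16 were higher, with a median of 0.01 beside −0.65 for all genes (0.70 beside 0.06, and 25 higher, without D18 replicate 2). mt-Co2 (3.74 ± 1.26) and mt-Co3 (4.11 ± 1.31) follow the split of the libraries described above, since anti-PD-1 replicates 1 and 2 held none of their reads. In anti-PD-1 replicate 3 they were at 20.4 and 27.9 normalised reads, above the lowest D18 library.

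**Figure D5:**
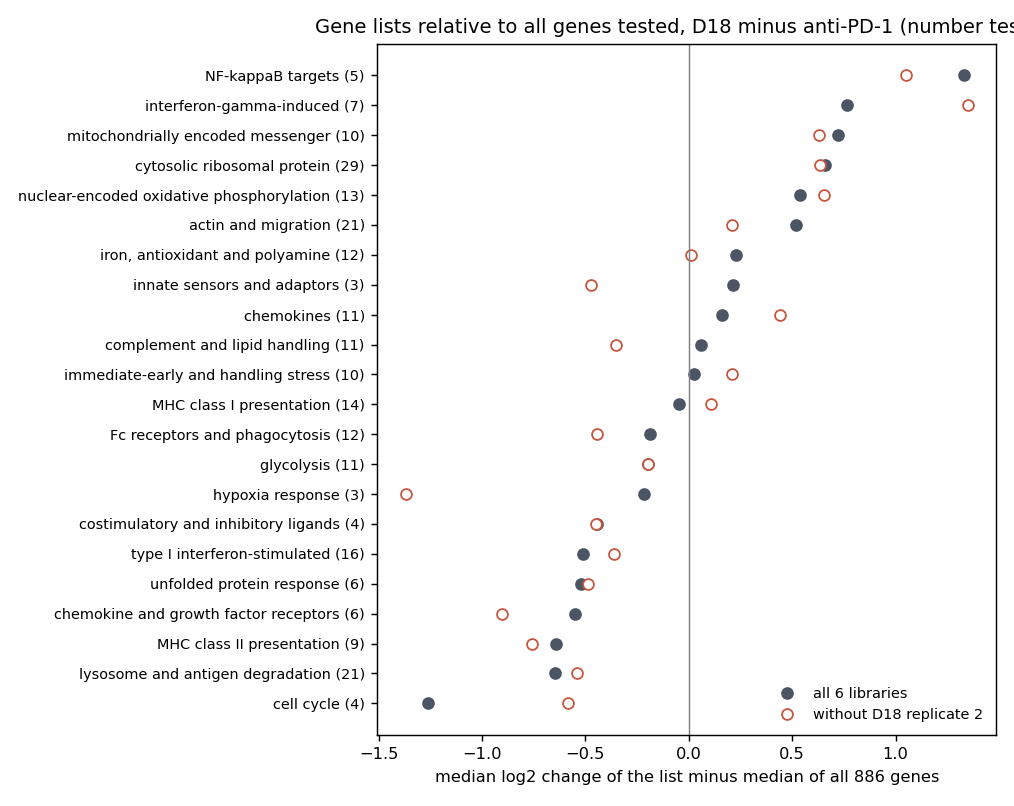
Median log2 change (D18 minus anti-PD-1) of each biology list with at least 3 tested genes, minus the median of all 886 tested genes, with all 6 libraries (filled) and without D18 replicate 2 (open); the number tested is in brackets. Interferon-gamma-induced genes lie above the median of all genes in both versions (by 0.77 and 1.35), and lysosomal and MHC class II genes below it.

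Whether D18 acted differently here than in the T cell sorts was tested as an interaction with limma, each effect taken within its own table. Against the CD8+ T cell sort, 0 of 816 genes (0%) passed (7 at an unadjusted p under 0.05, smallest adjusted p = 0.985). Against the CD4+ T cell sort, 0 of 744 passed (22 at an unadjusted p under 0.05, smallest adjusted p = 0.75). Usp18 was among the 5 genes with the smallest p in both, at −2.53 in the DC sort against 0.42 in CD8+ and 0.67 in CD4+ T cells (differences −2.95 ± 1.23 and −3.19 ± 1.23). Epsti1, an interferon-induced gene, was at −1.73 against 1.07 in CD8+ T cells. Rpn2 and Ssr1, which serve glycosylation and translocation of proteins at the endoplasmic reticulum, were at −2.45 and −2.90 against 0.71 and 0.25 in CD4+ T cells. Rnase4 (−0.86 against −3.72 in CD8+) and Marcks (0.20 against −2.65 in CD4+) differed the other way. The rest of the leading 5 of each test had negative differences. Median effects in the DC sort were −0.66 against −0.08 in CD8+, and −0.67 against −0.03 in CD4+ T cells. Without D18 replicate 2 these DC medians were 0.09 and 0.07. No effect of D18 is thus shown to be particular to the DC sort. Each sort also carries the split of the libraries by mt-Co2, mt-Co3 and mt-Atp6 reads, whose part in these effects was not tested.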

How the data were processed

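Of 18 libraries made from 3 sorts, the 6 of dendritic cells are analysed here, and those of CD8+ and CD4+ T cells enter the interaction test alone. The submitters' processing notes name STAR 2.4.0, HTSeq 0.6.1, mm10 and DESeq2, the last without a version. The deposited tables hold log2 values of a variance-stabilising kind, 1 table per sort, with no source naming the transform. Undoing it gave whole reads for 100% of values within 0.001. These reads imply size factors that match median-ratio factors (over 1414 genes seen in every dendritic cell library) to a relative difference of 1.7e-14. Symbols and places come from GENCODE for 46488 of 46983 gene IDs.

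Normalised reads (reads divided by the size factor) were tested with limma 3.58.1 (R 4.3.3, eBayes with trend and robust options) after log2(normalised reads + 1), keeping genes that averaged 10 or more, with a Benjamini-Hochberg adjusted p under 0.05 as the threshold and no covariate. Every log2 change is D18 minus anti-PD-1, with 3 libraries per group. Its SE is the moderated one of limma, drawn towards a trend over all tested genes. It is thus not the spread of that gene's own libraries alone. Python 3.11.15 with pandas 2.3.3 and matplotlib 3.10.9 served for tables and plots. The procedure was run on simulated counts with planted changes, drawn at the mean levels and size factors of these libraries. Their spread was set beforehand and they held no differences in cell content between libraries. The simulation thus does not tell how many changes could be found in these data. Intervals and floors cover counting error only.

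Named genes are the 10 per direction with the lowest unadjusted p, no overlap and an average of 50 or more in the higher group, the 4 highest tested members of each list, a fixed set of immune genes, and the 5 leading genes of each interaction. Others named were chosen after their values were seen. Some genes that the rule names are not reported here. The comparison, the gene lists and the tests were chosen with earlier results of these data known. Counts over genes with a mean of 1 to 10, and counts of groups that do not overlap with libraries left out, were added after the data had been examined. Alternatives were other scalings, limma-voom, the deposited log2 values, filters, pseudocounts, the replicate block, a term for the libraries without mt-Co2, mt-Co3 and mt-Atp6, 1 fit of all 18 libraries, and libraries left out.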

Additional observations from a re-analysis of the deposited data

How the results depend on the processing

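The test over all genes called 0 genes under every alternative except quantile normalisation, which called 1. Genes higher and lower with D18 at an unadjusted p under 0.05 numbered 19 and 42, and moved by over 1.5 times under these settings. They were 71 and 75 with quantile normalisation (48.6% of them higher, beside 31.1%), 41 and 87 with limma-voom, 249 and 237 of 17841 genes with no filter, and 4 and 2 of 68 genes with a mean of at least 100. With a term for the libraries without mt-Co2, mt-Co3 and mt-Atp6 they were 0 and 0. The lower count was 25 with a pseudocount of 0.1, 81 with a pseudocount of 10, 26 without both libraries numbered 3, and 119 in 1 fit of all 18 libraries. Leaving out each library in turn gave 8 to 29 higher genes and 10 to 79 lower genes. The lower count was 10, 13 and 14 without anti-PD-1 replicates 1, 2 and 3, and 75, 67 and 79 without D18 replicates 1, 2 and 3. The higher count was 9 without anti-PD-1 replicate 2 and 8 without D18 replicate 1. Groups that did not overlap numbered 37 higher and 176 lower. Leaving out 1 library gave 45 to 164 higher (74 without anti-PD-1 replicate 3, 164 and 61 without D18 replicates 2 and 3) and 190 to 262 lower. Leaving out both libraries numbered 3 gave 89 and 296. A group with fewer libraries overlaps less by construction. For the other changes the cause was not tested.

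The replicate block called 0 genes, with 16 higher and 36 lower at an unadjusted p under 0.05. Deviations of libraries with the same number correlated at 0.03, −0.09 and 0.14, and not every library correlated best with its own number, so the numbers are not taken to pair the libraries. Without D18 replicate 2 the interaction tests called 0 genes as well (3 against CD8+ and 15 against CD4+ T cells at an unadjusted p under 0.05). Depth limits all of this most in D18 replicate 2, where a tested gene had a median of 1 read, against 19 to 43 in the other libraries.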

Other observations

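Genes of protein folding and of proliferation were also on the lower side. Of 12 genes of the unfolded protein response 6 were tested, all with a negative change (median −1.18, beside −0.65 for all genes, and −0.42 beside 0.06 without D18 replicate 2). All 11 tested glycolysis genes were lower, with a median of −0.85 beside −0.65 for all genes, but 7 of 11 without that library (median −0.13 beside 0.06). The hypoxia-induced mitophagy receptor gene Bnip3 had 16.9, 49.6 and 22.2 normalised reads under the antibody alone, against 7.60, 0 and 10.0 when D18 was added (−2.60 ± 1.02, and −1.50 without D18 replicate 2). Of 20 cell cycle genes 4 could be tested. Among the 16 with a mean of 1 to 10 normalised reads, the D18 libraries were all lower for 5 and all higher for 0, beside 8.2% and 8.26% of all genes in that range. These counts were 6 and 0 without D18 replicate 2, beside 679 and 1186 of the 6708 genes. The 6708 genes were not matched to these 16 by level (80679 reads over the anti-PD-1 libraries, against 489 for the 16). Among the tested genes, whose levels are higher, the share all lower was 19.9%.

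Summed, the cDC1 markers took 975, 360 and 655 CPM under anti-PD-1 alone and 2025, 627 and 1099 CPM with D18, which overlap (exact permutation p = 0.3). Irf8, a transcription factor that this subset requires and that B cells also express, had 28.6, 20.05 and 26.5 normalised reads under the antibody alone and 80.8, 9.63 and 46.4 with D18 (0.42 ± 0.83, and 1.27 without D18 replicate 2). Of the 3 tested members of the list 2 were higher and 1 lower, with or without D18 replicate 2. Ppt1, the other higher one, had 17, 16 and 26 reads against 104, 3 and 42. Naaa was the lower one, with 10, 27 and 16 reads against 21, 1 and 9. Cadm1, an adhesion molecule of cDC1, had 2, 5 and 3 reads against 39, 0 and 17. Wdfy4, needed for cross-presentation, had 0, 13 and 4 against 46, 1 and 11, and Batf3, a transcription factor of cDC1, had 2, 0 and 4 against 12, 0 and 2. The 4 list members with a mean of 1 to 10 had 33 reads over the anti-PD-1 libraries and 142 with D18. B cell markers took 151, 22.5 and 87.7 CPM against 881, 89.5 and 384, and their part was not tested.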
